A study of Homo sapiens with 2 samples.

Results

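Readthrough genes are annotated genes whose transcripts run through a gene, past its end and into the next gene on the same strand. Members were taken as hyphenated gene symbols in which both names around the hyphen are symbols of protein-coding genes, so that each has an upstream parent (named first) and a downstream parent (named second). Of 16399 genes listed in the count files, 62 met this rule. The rule uses symbols alone and no measured value, though it was set with earlier results of these data known. They were measured by RNA sequencing in 2 libraries of A549, an established human lung adenocarcinoma line with epithelial features. The PKP2 library came from cells given SFB-tagged PKP2 to overexpress it, and the vector library came from cells with the vector. PKP2 encodes plakophilin 2, an armadillo-repeat protein of the desmosome. Both cultures were at passage 5 and grown in serum-containing DMEM. The sources give no count of clones for the overexpressing cells and name no promoter. The study asked which genes lie downstream of PKP2.

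Transcription normally ends after a gene's cleavage and polyadenylation site, where the cleavage machinery cuts the RNA and the polymerase is released. In a readthrough transcript that site is bypassed, the intergenic sequence is removed as an intron, and exons of both genes are joined by splicing. Most of its exons are therefore also exons of a parent, and a short read from such an exon can be placed with either gene. RSEM, named in the submitters' processing notes, divides a read that fits several transcripts among them as an estimate, which gives fractional counts.

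A 30-base stretch across a joining splice distinguishes a readthrough transcript that uses this splice from both parents. Several loci have more than 1 joining splice annotated, and 1 was chosen per locus. CHURC1-FNTB has 3, and the stretch shown is in 1 of its 4 transcripts, so transcripts with another splice lack it. A stretch is shown for 10 loci whose readthrough gene differed between the libraries. It has 15 bases from the last upstream-gene exon in lower case and 15 bases from the first downstream-gene exon in capitals. All are written 5′ to 3′ in the sense of the transcript.
CHURC1-FNTB: atggatgaatttcagGCAAAAGTAGAAGAA
RBM14-RBM4: gtgacgtggtgaaagGCAAACGAATGCACG
FMC1-LUC7L2: aatttcatggcaaggGAGATACAACTCGTC
RPL36A-HNRNPH2: attttccggaaaaagCTACACCAAAATTGC
BCL2L2-PABPN1: agcagtgggggctggGAGCTGGAAGCTATC
ARPIN-AP3S2: gaggacgaggagtggCCAGAAGAAATTCAA
TVP23C-CDRT4: acagtaaagtggctgGAATCTGAACCTGTG
TNFSF12-TNFSF13: tacctgtactgtcagAGTTCCGATGCCCTG
PEDS1-UBE2V1: tctgcatcaccacagGAGTAAAAGTCCCTC
RNF103-CHMP3: atctggctggttcagGTCAATGAGTGGTCA

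These sequences were read from the GENCODE 29 transcripts, on GRCh38. Counted from the last upstream base to the first downstream base, the joining introns span chr14:64926080-65004249 (plus strand) for CHURC1-FNTB, chr11:66617057-66643450 (plus) for RBM14-RBM4 and chr7:139345621-139376062 (plus) for FMC1-LUC7L2. For RPL36A-HNRNPH2 the span is chrX:101391822-101411936 (plus), for BCL2L2-PABPN1 chr14:23308199-23322181 (plus) and for TNFSF12-TNFSF13 chr17:7556902-7559624 (plus). The minus-strand spans are chr15:89889140-89903216 for ARPIN-AP3S2, chr17:15440285-15545785 for TVP23C-CDRT4, chr20:50096820-50127975 for PEDS1-UBE2V1 and chr2:86542312-86620330 for RNF103-CHMP3. In all 10 the joined exons are coding on both sides. Such a stretch could be extracted for 49 loci, and all 49 stretches were found in no transcript of a parent or of any other annotated gene.

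GENCODE 29 placed 55 of the 62 loci by symbol, with PHOSPHO2-KLHL23 among the other 7. In all 55 the readthrough gene and both parents lay on 1 strand, with the parents in the order of the name. The parents overlapped in 8 loci. In the other 47 the gap between them ran between 141 and 573553 bp with a median of 6909 bp, and it was under 10 kb in 29. A median of 0.306% of a readthrough gene's exonic bases lay in neither parent, and 24 of the 55 genes had no exonic base of their own. The share was under 10% in 40 genes and reached 65.0% in ARMCX5-GPRASP2. In splicing, every 1 of the 55 had at least 1 splice junction annotated in neither parent, with a median of 3 and a single such junction in 12. Most also began where the upstream parent begins. In the RefSeq promoter table (GRCh38.p14), 33 of the 48 loci with an entry for both genes had the same 300-base promoter window for the readthrough gene and its upstream parent.

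**Figure D1:**
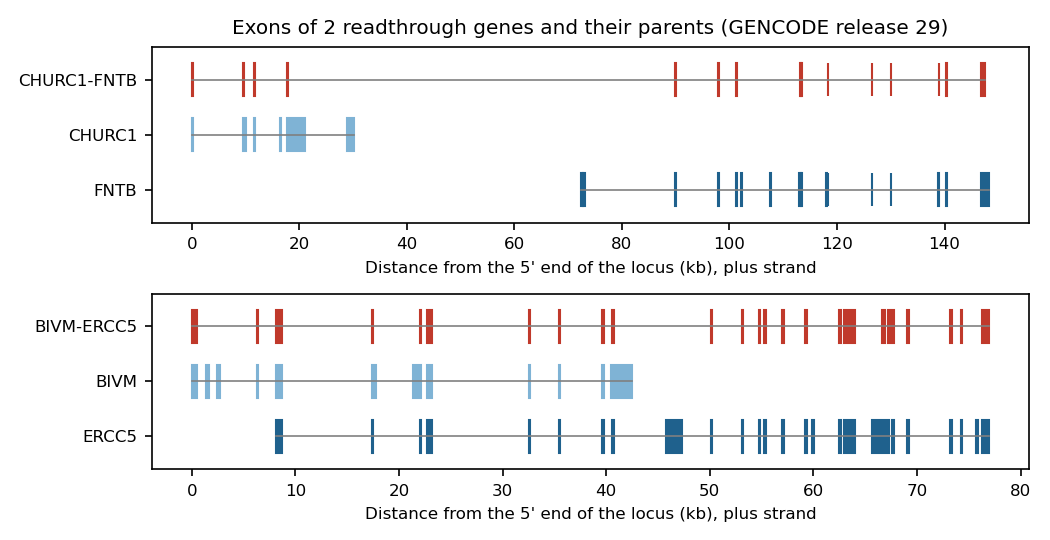
Exons (boxes) of CHURC1-FNTB and BIVM-ERCC5 and of their parents, by distance in kb from the 5′ end of the locus on the plus strand, from GENCODE 29. In CHURC1-FNTB the exons come from both parents across a gap of 42128 bp, whereas the annotated BIVM and ERCC5 overlap by 34390 bp and share several exons with each other as well as with BIVM-ERCC5.

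The map of these 2 loci shows both kinds of overlap. In CHURC1-FNTB each exonic base belongs to 1 parent, while in BIVM-ERCC5 part of the bases belong to all 3 genes.

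Library totals were 16808842 counts for PKP2 and 16996976 counts for vector, with 15816 genes above 0 in PKP2 and 15792 in vector. Levels are given as CPM, counts per 1000000 counts of the library total. PKP2 itself had 4505 counts in the PKP2 library and 464 in the vector library, a ratio of 9.82 with an exact Clopper-Pearson 95% counting interval of 8.92 to 10.8. All 8 epithelial and A549 markers were expressed, with summed levels of 19656 CPM in the PKP2 library and 19313 CPM in the vector library. Endothelial markers summed to 0.892 CPM in PKP2 and 0.235 CPM in vector, none expressed and PECAM1 not listed; fibroblast markers summed to 11.7 CPM in PKP2 and 9.41 CPM in vector, with 2 of 5 expressed and COL1A2 and DCN not listed. The leukocyte list summed to 85.8 CPM in the PKP2 library and 82.3 CPM in the vector library, nearly all from CD68, and of its defining genes PTPRC and CD3E were not listed. With 1 library per group there was no replicate check of any difference below, no test was run, and intervals cover counting error only, not the division of reads among overlapping genes. In such bulk RNA, fewer cells with a transcript and less of it per cell cannot be told apart.

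The readthrough genes were mostly rare transcripts. Together they held 5297 counts, 0.0315% of the PKP2 library, and 5518 counts, 0.0325% of the vector library, against 0.677% of the PKP2 library and 0.639% of the vector library for the 119 listed parents. At least 1 CPM in at least 1 library, called expressed here, was reached by 38, and the other 24 had at most 14.12 counts in the PKP2 library and 16.48 in the vector library. ANKHD1-EIF4EBP3 is named for the genes of an ankyrin-repeat protein and of an inhibitor of cap-dependent translation. Of its annotated exonic bases, 74.1% were shared with ANKHD1, only 4.45% with EIF4EBP3, and 21.4% lay in neither. Whether its product contains the inhibitor was not tested. At 61.0 CPM in the PKP2 library and 77.2 CPM in the vector library, ANKHD1-EIF4EBP3 was the most abundant. RPL36A-HNRNPH2 came next at 46.3 CPM in PKP2 and 32.4 CPM in vector, and ARPIN-AP3S2 had 15.6 CPM in PKP2 and 26.7 CPM in vector.

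Per kb of the longest annotated transcript, levels could be compared within 51 loci. The readthrough gene lay below both parents in 36 of them in the PKP2 library and in 34 in the vector library, and above both in 2 in PKP2 and 4 in vector. ANKHD1-EIF4EBP3 was above both in each library, at 7.39 CPM per kb against 5.64 for ANKHD1 and 0 for EIF4EBP3 in PKP2, and 9.37 against 6.57 and 0.277 in vector. GPR75-ASB3 was also above both in each library. ARPIN-AP3S2 and TVP23C-CDRT4 were above both parents in the vector library and below both in the PKP2 library.

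The 62 readthrough genes showed no common direction. Taken as the difference in log2(CPM + 1), PKP2 minus vector, 30 were higher and 32 lower, and the 38 expressed ones had a median of -0.04 against -0.00 over all 12820 expressed genes. Their spread was wider: the SD of these differences was 0.67 over the expressed readthrough genes, 0.28 over their expressed parents and 0.23 over all expressed genes. The SDs are not at equal level. In the PKP2 library the median was 1.41 CPM over the 62 readthrough genes and 18.2 CPM over their listed parents. Of the 38 expressed readthrough genes, 8 reached 1 CPM in only 1 library. A difference of 2-fold or more on this scale was reached by 2 higher readthrough genes, CHURC1-FNTB and RBM14-RBM4, where 0.0858% of all expressed genes were that much higher. It was reached by 3 lower ones, PHOSPHO2-KLHL23, PEDS1-UBE2V1 and RNF103-CHMP3, where 0.101% of expressed genes were that much lower. Of the 5, 4 were counted as expressed only through the library in which they were high, RBM14-RBM4 being the exception. With no filter on level the counts among all 62 were again 2 and 3, against 0.0671% higher and 0.0793% lower of the 16399 listed genes. This was fixed in advance, since 2-fold on this scale needs at least 1 CPM in the higher library. For the same reason an expressed gene at 0 in the other library, such as CHURC1-FNTB, is always past 2-fold. The 24 genes past 2-fold in the series thus held 5 readthrough genes and 1 of their parents, CDRT4.

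At 1.5-fold, 3 of the 38 expressed readthrough genes were higher and 7 lower, against 0.733% and 0.788% of all expressed genes. Low counts widen differences, so genes within 1 broad window of level were set side by side. Levels inside the window were not matched. Between a mean of 1 and 25 CPM, 8 of 31 readthrough genes (25.8%) were past 1.5-fold in either direction. This stood against 2 of 50 parents (4.0%), 40 of 1065 other genes with a fractional count (3.76%) and 95 of 4425 genes with whole counts (2.15%). Of the 8, CHURC1-FNTB (mean 1.68 CPM) and PHOSPHO2-KLHL23 (1.22 CPM) entered the window only through the library in which they were high. These shares therefore do not compare genes at equal level. Of the 34 expressed readthrough genes with counts in both libraries, the interval of the ratio lay above 1 for 5, below 1 for 9 and included 1 for 20. The share of all expressed genes with an interval that excludes 1 was not computed, so these counts are a description only.

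**Figure D2:**
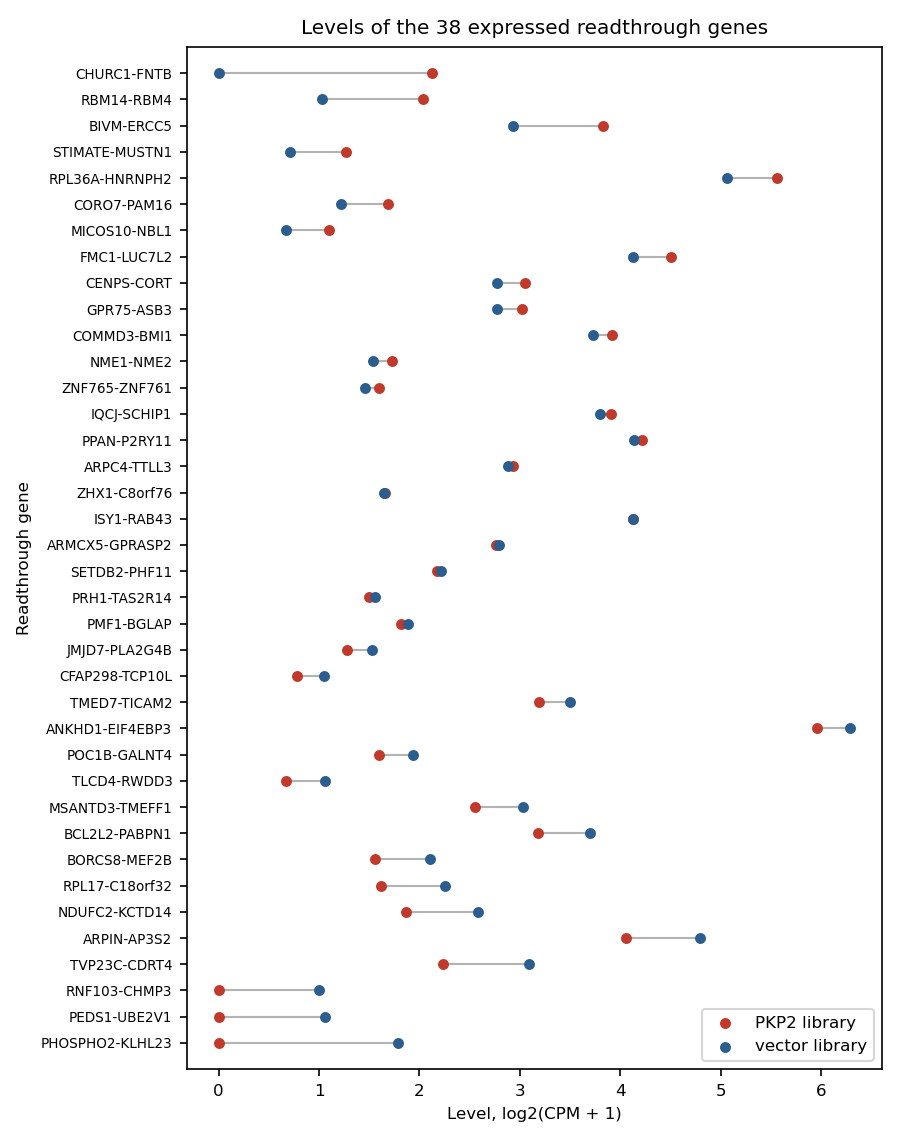
Level of each of the 38 expressed readthrough genes as log2(CPM + 1), with the PKP2 library in red and the vector library in blue, ordered by the difference. CHURC1-FNTB, at 3.37 CPM in PKP2 and 0 in vector, stands at the top, and PHOSPHO2-KLHL23, at 0 in PKP2 and 2.45 CPM in vector, at the bottom, with little difference for the genes in the middle.

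The plot of levels also shows that the order of the differences did not follow the order of the levels. ANKHD1-EIF4EBP3 lies farthest to the right of all, with a difference of -0.34.

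CHURC1-FNTB was the readthrough gene with the largest positive difference. CHURC1 is a zinc-binding protein known from neural induction in chick and frog embryos, and FNTB is the beta subunit of protein farnesyltransferase, which attaches a lipid to RAS proteins and lamins. CHURC1-FNTB had 56.58 counts in the PKP2 library and 0 in the vector library. Set against a floor of 3 counts it was 19.1-fold higher, with a lower counting limit of 15.1. CHURC1 had 735.69 counts in PKP2 and 738 in vector, and FNTB had 724.72 counts in PKP2 and 776 in vector. The locus as a whole had 1516.99 counts in the PKP2 library and 1514 in the vector library, a ratio of 1.01 (0.943 to 1.09). In CPM, the difference of 3.37 for the readthrough gene stood beside -2.54 for FNTB and 0.35 for CHURC1. Both parents had whole counts only in the vector library, where the readthrough gene was at 0.

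RBM14-RBM4 joins 2 RNA-binding proteins, RBM14 of nuclear paraspeckles and the splicing factor RBM4. It had 52.31 counts in the PKP2 library and 17.79 in the vector library, a ratio of 2.97 (1.68 to 5.31). Its parents differed little: RBM14 had 1827.90 counts in PKP2 and 1838.97 in vector and RBM4 had 1617.10 counts in PKP2 and 1523.49 in vector. RBM14-RBM4 therefore took 1.5% of the locus in the PKP2 library and 0.526% in the vector library. The counts of these 3 genes did not sum to a whole number, but with RBM4B, a near copy of RBM4 chosen after the values were seen, they summed to 3784.0 in PKP2 and 3619.0 in vector.

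BIVM-ERCC5 was the only readthrough gene whose share of its locus was higher by 10 percentage points or more in the PKP2 library. ERCC5, also called XPG, is the endonuclease that cuts on the 3′ side of DNA damage in nucleotide excision repair, and BIVM is a conserved protein of little-known function. BIVM-ERCC5 had 221.24 counts in the PKP2 library and 112.57 in the vector library, a ratio of 1.99 (1.57 to 2.5). BIVM was lower, at 227.43 counts in PKP2 and 320.03 in vector, and so was ERCC5, at 334.33 counts in PKP2 and 408.24 in vector. The locus total was 783 counts in PKP2 and 840.84 in vector, a ratio of 0.942 (0.853 to 1.04). The readthrough gene held 28.3% of it in the PKP2 library (25.1% to 31.5%) and 13.4% in the vector library (11.2% to 15.9%).

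RPL36A-HNRNPH2 and FMC1-LUC7L2, both among the more abundant, were higher by smaller steps. RPL36A is a protein of the large ribosomal subunit and HNRNPH2 an RNA-binding splicing regulator; their readthrough gene had 778.44 counts in the PKP2 library and 550.16 in the vector library, a ratio of 1.43 (1.28 to 1.6). RPL36A was also higher (9204.63 counts in PKP2 and 8188.08 in vector) while HNRNPH2 was lower (863.93 counts in PKP2 and 984.76 in vector). FMC1 is an assembly factor of mitochondrial ATP synthase and LUC7L2 a U1 snRNP-associated splicing factor. FMC1-LUC7L2 had 363.87 counts in the PKP2 library and 280.08 in the vector library, a ratio of 1.31 (1.12 to 1.54), beside 107.39 counts in PKP2 and 80.96 in vector for FMC1 and 1263.23 counts in PKP2 and 1358.89 in vector for LUC7L2. STIMATE-MUSTN1 had 23.55 counts in PKP2 and 10.81 in vector, CORO7-PAM16 had 37.45 counts in PKP2 and 22.68 in vector, and MICOS10-NBL1 had 19.19 counts in PKP2 and 10.01 in vector. Among these 3 the interval of the ratio excluded 1 only for STIMATE-MUSTN1 (1.04 to 4.99).

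TVP23C-CDRT4 had the largest difference in share of all 62 readthrough genes, taken over the counts of the readthrough gene and its parents. TVP23C belongs to a family of Golgi membrane proteins, and CDRT4 is a transcript of the chromosome 17 region duplicated in a hereditary neuropathy. TVP23C-CDRT4 had 62.16 counts in the PKP2 library and 127.42 in the vector library, 2.03-fold lower in PKP2 (1.48 to 2.79). CDRT4 differed in the opposite direction, with 90.76 counts in PKP2 and 11.55 in vector, a ratio of 7.95 (4.18 to 15.4), and TVP23C had 95.53 counts in PKP2 and 83.08 in vector. The locus total was 248.45 counts in PKP2 and 222.05 in vector, a ratio of 1.13 (0.939 to 1.36). The readthrough gene's share of it was 25% in the PKP2 library (19.7% to 30.9%) and 57.4% in the vector library (50.4% to 63.8%), while CDRT4 held 36.5% in PKP2 and 5.2% in vector. As with RBM14-RBM4, a near copy of a parent completed the sum: with TVP23B, chosen after the values were seen, the sum was 1251.0 in PKP2 and 1324.0 in vector. TVP23B alone had 1002.55 counts in PKP2 and 1101.95 in vector, far more than the locus total. The shares above leave TVP23B out. Shares of the sum with it would be much smaller in both libraries and were not computed.

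PHOSPHO2-KLHL23 was not counted at all in the PKP2 library. PHOSPHO2 is a phosphatase that acts on pyridoxal phosphate, and KLHL23 is a kelch-repeat protein. The readthrough gene had 0 counts in PKP2 and 41.61 in vector, 13.7-fold lower when set against the floor, with a lower counting limit of 10.8. PHOSPHO2 had 18 counts in PKP2 and 13.33 in vector and KLHL23 266 counts in PKP2 and 286.06 in vector. Here the locus total was also lower in the PKP2 library, at 284 counts in PKP2 and 341 in vector, a ratio of 0.842 (0.717 to 0.989). The share was 0% in PKP2, with an upper counting limit of 1.29%, and 12.2% in vector (9.02% to 16.3%).

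ARPIN-AP3S2 was lower within a locus whose total was nearly equal in both libraries. ARPIN inhibits the Arp2/3 complex that nucleates branched actin, and AP3S2 is the sigma subunit of the AP-3 adaptor of vesicle traffic. The readthrough gene had 261.95 counts in the PKP2 library and 453.95 in the vector library, 1.71-fold lower in PKP2 (1.47 to 2.0). AP3S2 was higher, at 1246.01 counts in PKP2 and 966.84 in vector, a ratio of 1.30 (1.2 to 1.42), and ARPIN was slightly lower, at 889.05 counts in PKP2 and 1010.21 in vector. The locus total was 2397.01 counts in PKP2 and 2431 in vector, a ratio of 0.997 (0.942 to 1.06), and the readthrough share was 10.9% in PKP2 and 18.7% in vector.

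PEDS1-UBE2V1 and RNF103-CHMP3 passed 2-fold from very small counts. PEDS1 makes the vinyl ether bond of plasmalogens, and UBE2V1 is a catalytically inactive partner of the ubiquitin-conjugating enzyme UBE2N. PEDS1-UBE2V1 had 0 counts in PKP2 and 18.46 in vector, in a locus of 4586 counts in PKP2 and 4407 in vector. Set against the floor, the readthrough gene was 6.09-fold lower, with a lower counting limit of 4.35. RNF103 is a ubiquitin ligase of the endoplasmic reticulum and CHMP3 a subunit of ESCRT-III, which cuts membrane necks. RNF103-CHMP3 had 0 counts in PKP2 and 17.09 in vector, in a locus of 2965 counts in PKP2 and 3117 in vector. Against the floor this readthrough gene was 5.63-fold lower, with a lower counting limit of 4.08. In both loci the readthrough gene was under 1% of the locus in either library.

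Further expressed readthrough genes were lower by 1.27-fold to 1.88-fold. NDUFC2-KCTD14, whose upstream parent is a subunit of mitochondrial complex I, had 44.49 counts in PKP2 and 84.59 in vector, 1.88-fold lower (1.31 to 2.81). RPL17-C18orf32, with a ribosomal protein upstream, had 34.81 counts in PKP2 and 63.99 in vector, 1.82-fold lower (1.18 to 2.81). BORCS8-MEF2B joins a subunit of the BORC complex, which positions lysosomes, to a MEF2 transcription factor; it had 32.69 counts in PKP2 and 56.23 in vector, 1.70-fold lower (1.07 to 2.66), while MEF2B had 35.66 counts in PKP2 and 14.91 in vector, a ratio of 2.42 (1.30 to 4.77). BCL2L2-PABPN1, from the anti-apoptotic BCL-W and the nuclear poly(A)-binding protein, had 135.72 counts in PKP2 and 203.80 in vector, 1.49-fold lower (1.19 to 1.86), while PABPN1 had 2375.74 counts in PKP2 and 2021.15 in vector. MSANTD3-TMEFF1 had 81.93 counts in PKP2 and 122.31 in vector, 1.48-fold lower (1.1 to 1.97). TMED7-TICAM2 joins a cargo receptor of the secretory pathway to an adaptor of Toll-like receptor 4 and had 136.27 counts in PKP2 and 174.68 in vector, 1.27-fold lower (1.01 to 1.6). ANKHD1-EIF4EBP3, with 1024.65 counts in PKP2 and 1313.01 in vector, was 1.27-fold lower (1.17 to 1.38), and there ANKHD1 was lower as well, at 779.35 counts in PKP2 and 917.74 in vector.

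At 0 in 1 library with more than 3 counts in the other, 6 readthrough genes were at 0 in PKP2, where 0.207% of listed genes were, and 6 were at 0 in vector, where 0.372% of listed genes were. These 12 made up 19.4% of the 62, against 0.579% of all listed genes. The 2 shares are not at equal level. The readthrough genes had a median of 1.41 CPM in PKP2 and 1.08 CPM in vector, against 17.7 CPM and 17.8 CPM for all listed genes. No share was computed for genes of like level or with fractional counts, so the excess is a description only. Besides CHURC1-FNTB, PHOSPHO2-KLHL23, PEDS1-UBE2V1 and RNF103-CHMP3 the 12 were genes below 1 CPM in both libraries. TNFSF12-TNFSF13 encodes TWE-PRIL, a membrane-anchored fusion of the cytokines TWEAK and APRIL. It had 0 counts in PKP2 and 16.48 in vector, beside 158 counts in PKP2 and 123.15 in vector for TNFSF12 and 60 counts in PKP2 and 60.37 in vector for TNFSF13. ABHD14A-ACY1 (9.48 counts in vector) and NEDD8-MDP1 (5.95 counts in vector) were also at 0 in PKP2. At 0 in vector were ATP5MF-PTCD1 (14.12 counts in PKP2), DNAJC25-GNG10 (10.90 counts), TRIM39-RPP21 (9.60 counts), RPS10-NUDT3 (9.26 counts) and ZNF559-ZNF177 (3.91 counts).

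Of the expressed readthrough genes, 9 differed by less than 1.1-fold. ISY1-RAB43, from a spliceosome-associated factor and a RAB GTPase, had 276.57 counts in the PKP2 library and 279.07 in the vector library, a ratio of 1.00 (0.847 to 1.19). PPAN-P2RY11, from a ribosome biogenesis factor and a purinergic receptor, had 295.87 counts in PKP2 and 280.92 in vector, a ratio of 1.07 (0.902 to 1.26). IQCJ-SCHIP1 had 235.04 counts in PKP2 and 219.38 in vector, a ratio of 1.08 (0.899 to 1.31). ARPC4-TTLL3, from a subunit of the Arp2/3 complex and a tubulin glycylase, had 111.25 counts in PKP2 and 108.08 in vector. The remaining 5 were ARMCX5-GPRASP2, PMF1-BGLAP, PRH1-TAS2R14, SETDB2-PHF11 and ZHX1-C8orf76. COMMD3-BMI1, which contains the Polycomb protein BMI1, had 236.66 counts in PKP2 and 207.7 in vector, a ratio of 1.15 whose interval of 0.952 to 1.39 included 1. The same held for CENPS-CORT, with a kinetochore protein upstream, at 122.58 counts in PKP2 and 98.79 in vector, and for GPR75-ASB3 at 119.24 counts in PKP2 and 98.81 in vector. NME1-NME2, from a pair of nucleoside diphosphate kinases, had 38.65 counts in PKP2 and 32.21 in vector, and POC1B-GALNT4, with a centriole protein upstream, had 34.12 counts in PKP2 and 48.23 in vector.

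The genes below 1 CPM in both libraries carried little more than a few reads each. Besides those at 0 in 1 library, 10 of these 24 had counts in both, and the interval of the ratio excluded 1 for HSPE1-MOB4 and FAM47E-STBD1. HSPE1-MOB4, from a mitochondrial chaperonin and a kinase adaptor, had 13.75 counts in PKP2 and 4.45 in vector, a ratio of 3.12 (1.11 to 14.8). FAM47E-STBD1, with a glycogen-binding protein downstream, had 7.90 counts in PKP2 and 0.83 in vector, a ratio of 9.62 (1.08 to 359). A further 6 of the 24 were at 0 in 1 library and at no more than 3 counts in the other.

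Summed over the readthrough gene and its parents, the loci differed far less than the readthrough genes alone. No locus total was past 2-fold or 1.5-fold. Of all expressed genes only 0.187% were past 2-fold and 1.52% past 1.5-fold, so this count is near that share. The differences of the totals on the log2(CPM + 1) scale ran between -0.29 for ANKHD1-EIF4EBP3 and 0.29 for ABHD14A-ACY1, with an SD of 0.14 over 62 loci. The readthrough genes of the same loci had an SD of 0.59. A sum over larger counts varies less than a small part of it, so the 2 SDs are given as a description. Over all 62 readthrough genes, 16 were past 1.5-fold, 7 higher and 9 lower, against 0.671% and 0.659% of the listed genes. The totals of these 16 loci were within 1.5-fold, as every total was. In 10 of the 16 the readthrough gene and the sum of its parents differed in opposite directions, and over all loci this was so in 31.

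**Figure D3:**
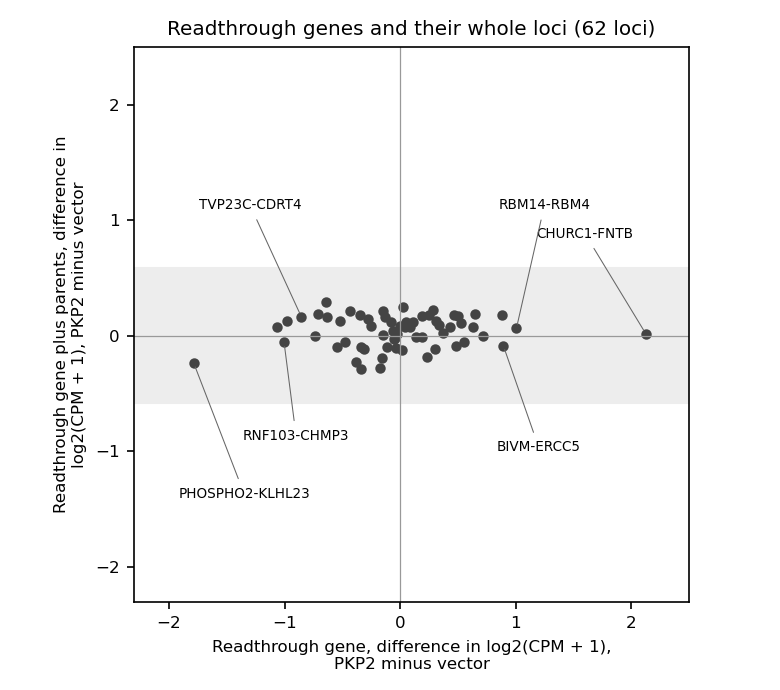
Difference in log2(CPM + 1), PKP2 minus vector, of each readthrough gene (horizontal axis) and of the readthrough gene plus its listed parents (vertical axis), 1 point per locus, with the grey band marking less than 1.5-fold for the total. The points spread from left to right but all 62 lie within the band, between -0.29 and 0.29.

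**Figure D4:**
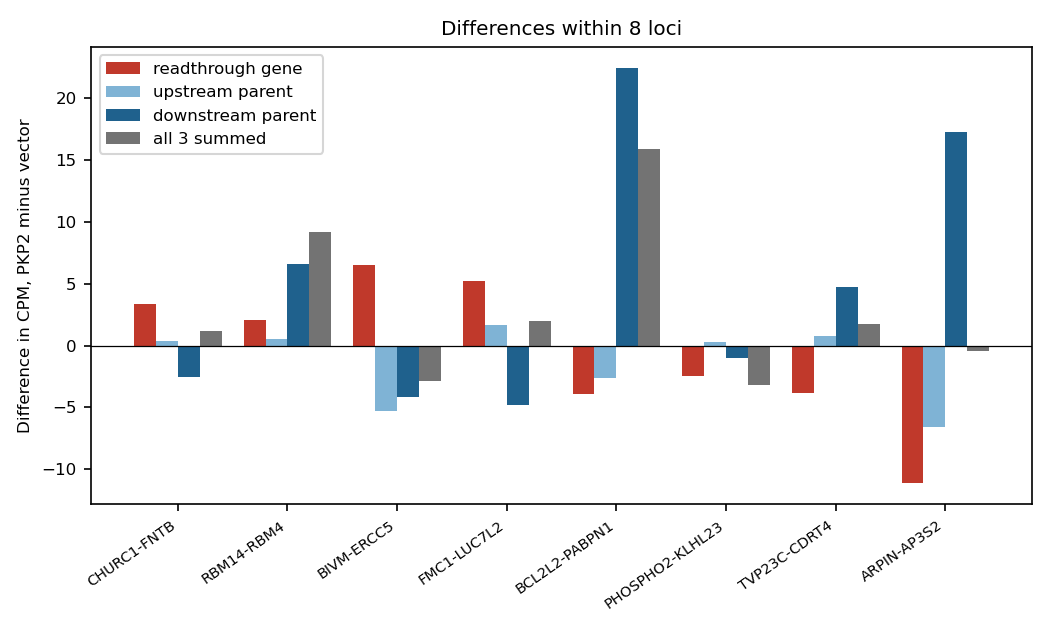
Difference in CPM, PKP2 minus vector, of the readthrough gene, its upstream parent, its downstream parent and their sum in 8 loci. In ARPIN-AP3S2 the readthrough gene was lower by 11.1 CPM and AP3S2 higher by 17.2 CPM with a sum of -0.42 CPM, while in PHOSPHO2-KLHL23 the readthrough gene and the sum were both lower.

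The plot of whole loci shows the totals, and the bars show the parts of 8 loci picked as examples. Parents offset the readthrough gene in some loci and not in others. In RBM14-RBM4 the readthrough gene and both parents were higher, with a sum of 9.19 CPM. Among loci not drawn as bars, RPL36A-HNRNPH2 had a sum of 73.3 CPM and ANKHD1-EIF4EBP3 of -24.1 CPM, each in the direction of its readthrough gene. In CPM, the difference of BIVM-ERCC5 was 6.54, against -5.30 for BIVM and -4.13 for ERCC5. The TVP23C-CDRT4 difference of -3.80 CPM stood beside 4.72 CPM for CDRT4 and 0.80 CPM for TVP23C. In BCL2L2-PABPN1 the difference of PABPN1, 22.4 CPM, was larger than that of the readthrough gene, -3.92 CPM, and the total was higher by 15.9 CPM.

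Fractional counts were the rule among these genes. All 51 readthrough genes above 0 in the PKP2 library had a fractional count, and 54 of 55 did in the vector library, ZNF664-RFLNA with 2 counts being the exception. A fractional count in at least 1 library was found for 98.4% of the readthrough genes and 90.8% of the parents, against 17.6% of all listed genes. Where the readthrough gene's count was fractional, the sum of the 3 genes was whole, within 0.02 of an integer, in 41 of 51 loci in the PKP2 library and in 41 of 54 in the vector library. Where the readthrough gene was at 0, each listed parent's count was within 0.02 of an integer in 11 of 11 loci in PKP2 and in 6 of 7 in vector, where PTCD1 had 613.24 counts. The sum was whole in both libraries in 46 of the 62 loci, and in the other 16 it was not whole in at least 1 library.

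The readthrough gene's share of locus counts had a median of 3.18% in the PKP2 library and 3.73% in the vector library. It was under 5% in 39 loci in PKP2 and 34 in vector, and over 50% in 2 loci in PKP2 and 4 in vector. Of 61 loci with at least 50 counts in each library, 27 had a higher share in PKP2 and 34 a lower one, with a median shift of -0.18 percentage points and 30 loci within 1 point. As shares of counts, not adjusted for length, only BIVM-ERCC5 was higher by 10 points or more. Only TVP23C-CDRT4, whose locus total leaves out TVP23B, and PHOSPHO2-KLHL23 were lower by as much. The next lower shares were those of BORCS8-MEF2B (14.4% in PKP2 and 22.8% in vector), TNFSF12-TNFSF13 (0% in PKP2 and 8.24% in vector), ARPIN-AP3S2 and JMJD7-PLA2G4B (15.8% in PKP2 and 22.4% in vector). The next higher were FMC1-LUC7L2 (21.0% in PKP2 and 16.3% in vector), STIMATE-MUSTN1 (8.29% in PKP2 and 3.63% in vector), FAM47E-STBD1 (4.14% in PKP2 and 0.403% in vector) and CHURC1-FNTB (3.73% in PKP2 and 0% in vector). The 2 counting intervals did not overlap in 19 loci, 9 with a higher and 10 with a lower share in PKP2. No like count was made for other overlapping genes, so this number has no background to be read against.

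**Figure D5:**
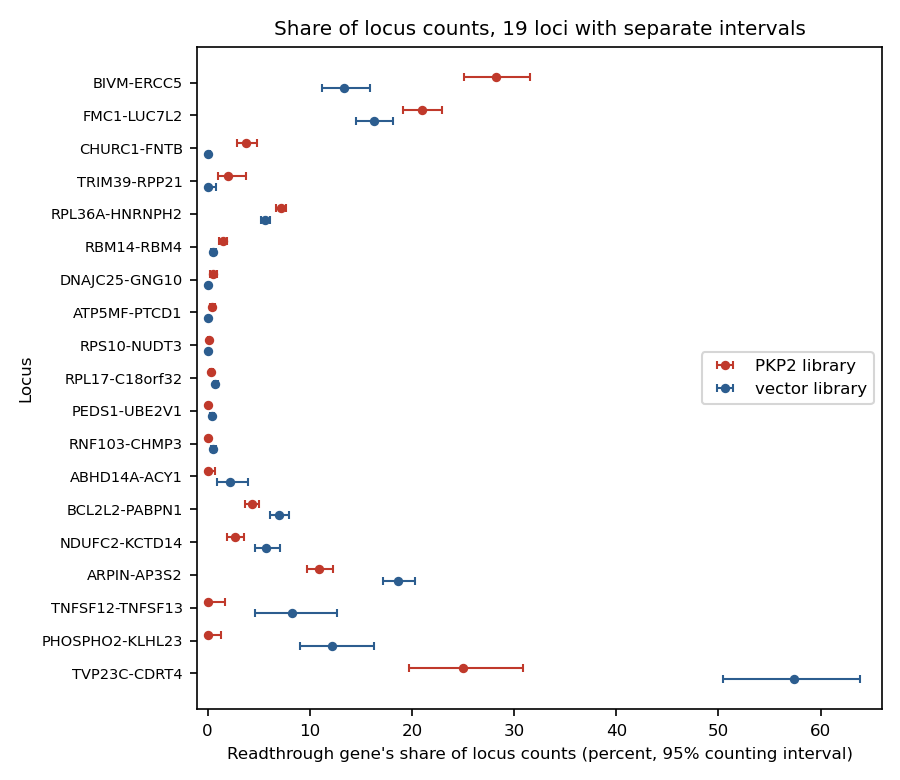
Readthrough gene's share of locus counts in percent, with exact 95% counting intervals, in the PKP2 library (red) and the vector library (blue) for the 19 loci whose intervals did not overlap. TVP23C-CDRT4 (25% in PKP2, 57.4% in vector) and BIVM-ERCC5 (28.3% in PKP2, 13.4% in vector) stand farthest apart, and most of the other loci lie under 10% in both libraries.

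In the plot of shares the differences run in both directions, and 10 of the 19 loci had a share of 0 in 1 of the libraries. For counting error alone, a share of 0 allows a share up to the interval's limit, such as 0.243% for CHURC1-FNTB in the vector library. The limit does not cover how reads were divided between the readthrough gene and its parents, so the true share could be larger.

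The parents' median differences were close to 0. The 56 expressed upstream parents had a median difference of 0.07, 36 of them higher and none past 1.5-fold. The 48 expressed downstream parents had a median of 0.06, 28 of them higher and 4 past 1.5-fold. Of all 12820 expressed genes, 6372 were higher and 1.52% were past 1.5-fold in either direction. The 4 downstream parents past 1.5-fold were CDRT4, MEF2B and SH3BGR, which were higher in PKP2, and TMEFF1, which was lower. SH3BGR had 24 counts in PKP2 and 7.53 in vector, a ratio of 3.22 (1.32 to 7.81), with the readthrough gene GET1-SH3BGR at 0 counts in PKP2 and 1.81 in vector. TMEFF1, a transmembrane protein with follistatin domains, had 2.83 counts in PKP2 and 19.14 in vector, 6.69-fold lower (1.84 to 33.1), while MSANTD3-TMEFF1 was lower as well.

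Genes that end transcription or clear aberrant transcripts were read as a background to readthrough. Of 23 cleavage and polyadenylation genes, 10 were higher and 13 lower with a median of -0.06, which was 0.04 with a trend on transcript length and GC content removed, and none was past 1.5-fold. CPSF4, a zinc-finger subunit of the cleavage complex, had 726 counts in PKP2 and 535 in vector, a ratio of 1.37 (1.23 to 1.54). PCF11, which links cleavage to polymerase release, had 685 counts in PKP2 and 829 in vector, 1.2-fold lower (1.08 to 1.33). PABPN1, itself a parent here, had a ratio of 1.19. Of 24 termination and elongation genes, 6 were higher and 18 lower with a median of -0.05. CCNT1, the cyclin of P-TEFb, had 666 counts in PKP2 and 938 in vector, 1.39-fold lower (1.26 to 1.54), and the polymerase kinase CDK12 had 2148 counts in PKP2 and 2830 in vector, 1.30-fold lower (1.23 to 1.38).

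Of 14 Integrator subunits, whose complex ends transcription at many genes, 3 were higher and 11 lower with a median of -0.06. INTS2 had 667 counts in PKP2 and 862 in vector, 1.28-fold lower, and INTS4 and INTS6 were 1.17-fold and 1.15-fold lower, INTS6 with fractional counts. Of 17 nonsense-mediated decay genes, 7 were higher and 10 lower with a median of -0.00. The kinase SMG1, with fractional counts, was 1.29-fold lower, while MAGOH of the exon junction complex and UPF3B were 1.30-fold and 1.18-fold higher. No gene of the 4 lists was past 1.5-fold, a count near the 1.52% of all expressed genes that were, and the median over all expressed genes was -0.00. Over all expressed genes 6372 were higher and 6448 lower.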

How the data were processed

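Each library has its own deposited file with 1 estimated count per gene, listed by Entrez ID; per the labels' protocols, Trizol-extracted total RNA went into Illumina's TruSeq RNA kit. Per the submitters' processing notes the tools were HISAT2 2.0.4, Bowtie2 and RSEM 1.2.12, and GRCh38.p12 was the build. Their roles, any filter, the annotation release and strandedness were not given in the sources used here, so reads of overlapping, antisense or near-identical genes cannot be told apart.

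RefSeq symbols (GRCh38.p14 table, used for names) matched 16183 of 16399 IDs. Of 155 RefSeq symbols that meet the membership rule, the 62 in the files are all annotated as protein-coding. Of their 124 parents 119 are listed; TNNI3K, SAA4, P2RY11, IQCJ and TNFAIP8L2 are not, and their loci are summed without them. Members and gene lists were chosen with earlier results of these data known.

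CPM was each gene's count scaled to a library total of 1000000. Differences are log2(CPM + 1), PKP2 minus vector, which understates those of genes near 1 CPM; ratios and folds are of plain CPM, with exact 95% Clopper-Pearson counting intervals from counts rounded to whole numbers. Reads are not independent molecules, so intervals and floors cover counting error only. Genes at 0 were bounded with a floor of 3 counts per library, 0.178 CPM in PKP2 and 0.177 CPM in vector. A locus is a readthrough gene with its parents. Every expressed member could be named, with full values for the 10 highest and 10 lowest differences at a mean of 1 CPM or more and the 10 largest shifts of share in each direction, and up to 3 genes of each list by size of difference. RBM4B and TVP23B were added afterwards. Structures and sequences came from GENCODE 29 by symbol or older symbol. Alternatives varied the pseudocount, filter, scaling, thresholds, a length and GC trend and the membership rule. Calculations used Python 3.11.15, pandas 2.3.3, NumPy 2.4.6 and SciPy 1.17.1, and were tested on simulated data.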

Additional observations from a re-analysis of the deposited data

How the results depend on the processing

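With the main settings, 2 expressed readthrough genes were past 2-fold higher and 3 lower. A pseudocount of 0.1 CPM gave 3 higher and 4 lower, with STIMATE-MUSTN1 (1.03) and TVP23C-CDRT4 (-1.0) then past 2-fold. A pseudocount of 5 CPM left 0 higher and 0 lower, as did a minimum mean of 5 CPM, which kept 17 of the 38 genes; both act on genes of low level. A 1.5-fold threshold gave 3 higher and 7 lower, and a 4-fold threshold 1 and 0. With a trend of the difference on transcript length and GC content removed, an alternative chosen after seeing the data and available for 32 of the 38 genes, 1 was higher and 2 lower, RBM14-RBM4 having a difference of 0.90 in place of 1.01; PHOSPHO2-KLHL23 had no value. Letting either name around the hyphen be any annotated symbol, also chosen after seeing the data, gave 71 genes with 2 higher and 3 lower. Shares lower by the threshold numbered 2 at 10 percentage points, 7 at 5 points and 1 at 20 points, and shares higher numbered 1, 1 and 0. Taken per kb of the longest transcript, the shares of ARPIN-AP3S2 (24.6% in PKP2, 38.5% in vector) and BORCS8-MEF2B (22.1% and 35.6%) were also lower by over 10 points. TVP23C-CDRT4 (24.3% and 58.1%) stayed lower and BIVM-ERCC5 (24.1% and 11.0%) higher, while PHOSPHO2-KLHL23 had no value per kb. The median difference of the readthrough genes, -0.04, was 0.05 at a minimum mean of 5 CPM, and that of the cleavage and polyadenylation list, -0.06, was 0.04 with the trend removed. No locus total passed 2-fold where totals were recomputed, which was not done for the trend and the wider symbol rule. Single genes were followed only for the 10 highest and 10 lowest differences at a mean of 1 CPM or more. None of these changed sign at a pseudocount of 0.1 or 5 CPM or with the trend removed, where it had a value. Rescaling moved the median of all genes by under 0.1. Depth limits the low genes most: 24 of the 62 lay below 1 CPM in both libraries, and a listed 0 is only a count under the floor of 3. No paired analysis was possible because each group has 1 library.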

Other observations

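The files list 9 further hyphenated symbols in which 1 name is not that of a protein-coding gene, such as a pseudogene or a noncoding RNA, and which were therefore left out of the 62. Of these 5 were expressed and 0 were past 2-fold on the log2(CPM + 1) scale. BOLA2-SMG1P6 had 629.88 counts in the PKP2 library and 653.31 in the vector library. C8orf44-SGK3 had 53.54 counts in PKP2 and 89.72 in vector, 1.66-fold lower, while SGK3, a serine-threonine kinase related to AKT, had 77.13 counts in PKP2 and 55.82 in vector. CRYZL2P-SEC16B had 46.22 counts in PKP2 and 65.59 in vector, TPTEP2-CSNK1E had 24.01 in PKP2 and 16.66 in vector, and LINC02210-CRHR1 had whole counts of 41 in PKP2 and 54 in vector.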
